A study of Homo sapiens with 42 samples.

Results

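The genes described here are those whose transcripts read lower at 24, 32 and 48 h after a hairpin against BMI1 was switched on in a human myeloma line. In the control line the same drug left them, on average over the 3 times, near the level without it. Members were chosen on Affymetrix probe sets, each a group of probes read as 1 value, with a single gene symbol. The probe set had to have a mean signal of at least 100 without doxycycline at all 3 times in the BMI1-shRNA line (no floor was set in the control line), and a ratio of group means with over without doxycycline of at most 0.75 at each of them. The mean of the 3 ratios in the control-shRNA line had to lie between 0.85 and 1.18, and a list of named genes and of 4 large gene groups was left out. Of 41091 single-symbol probe sets for 19775 genes, 12651 reached the signal floor, 121 of those (0.956%) met the ratio limit, and 120 of them also met the control window. The one lost to the window was SLC18B1, with a control ratio of 0.563. After 21 probe sets of 12 excluded genes were taken out, 99 probe sets of 80 genes were members. All 99 also passed the filter on low values used in the fits.

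RPMI-8226 is an established line of multiple myeloma, a cancer of antibody-secreting plasma cells. Cells had been stably infected with a hairpin against BMI1 (Bmi1-shRNA) or a control hairpin (Ctl-shRNA), 1 line for each, and 100 ng/ml doxycycline induced the hairpin. Each line was profiled without doxycycline at 0, 24, 32 and 48 h and with it at 24, 32 and 48 h, giving 14 groups of 3 arrays. Replicates are numbered without saying whether they were separate cultures, so spreads and p-values may be technical. With 1 hairpin for BMI1, what that hairpin does through BMI1 and what it does otherwise cannot be told apart.

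BMI1 is a subunit of Polycomb repressive complex 1 (PRC1), which places ubiquitin on histone H2A and keeps developmental and growth-arrest genes silent. Genes held silent by PRC1 are known to come on when it is lost. The genes here were chosen for reading lower, and whether PRC1 acts on any of them was not tested. A short hairpin RNA is cut by DICER1 and loaded onto an Argonaute protein, which cleaves the matching messenger RNA. The members span many textbook roles rather than one pathway: mitochondrial electron carriers, chromatin factors, a cytokine receptor chain, cytoskeletal proteins, Golgi and endosome proteins, and translation factors.

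The 3 arrays of the BMI1-shRNA line at 0 h carry conflicting labels: their title gives no doxycycline, their characteristics give doxycycline, and their source name gives the control line. They are grouped by title here, and a comparison that rests on them is also given without them. BMI1 itself, read by a probe set annotated to BMI1 and its readthrough COMMD3-BMI1, had dosed over undosed ratios of 0.223, 0.171 and 0.156 at 24, 32 and 48 h in its line and 1.08, 0.953 and 1.04 in the control line. On the 3 arrays at 0 h of its line BMI1 read 1009.3 to 1069.4. Later arrays of that line read 758.3 to 1128.8 undosed and 139.8 to 234 dosed, and control arrays at 0 h 1214.5 to 1296.7. RHOU, a member, averaged 382 on the 3 arrays. Without doxycycline at 24 to 48 h it averaged 388 in the BMI1-shRNA line and 76.6 in the control line. In both genes the 3 arrays thus read like undosed arrays of the BMI1-shRNA line. All 9 plasma cell markers had a median signal of at least 100, while none of 5 T cell, 3 monocyte and 2 erythroid markers did. Of the epithelial markers 3 of 4 (EPCAM, KRT18 and CDH1) and of the fibroblast markers 1 of 4 (COL1A1) reached it. These medians pool the 42 arrays of both lines. CDH1 ran from 24.6 to 450.6 over them, with a median of 181. Its means over 9 arrays of the BMI1-shRNA line were 378 without and 382 with doxycycline. In the BMI1-shRNA line the summed signal of the 4 epithelial markers ran from 5515.8 to 6482 on undosed and from 5279.5 to 6285.2 on dosed arrays. That of the fibroblast markers ran from 113.5 to 190.0 on undosed and from 132.2 to 207.3 on dosed arrays. The median signal of an array lay between 16 and 22.5.

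Promoters were read for the members as a description, since the rule itself chose them for reading lower together. RefSeq promoter entries (GRCh38.p14, 250 bases before to 50 after the start) were matched by symbol for 67 of the 80 genes. The stretches below are the 120 bases before the start site of 6 of the 10 members with the lowest ratios, shown to let a reader see how different they are. Capitals mark matches, on either strand, to the GC box GGGCGG, the CCAAT box, the TATA box TATAAA, the E-box CACGTG, the E2F core GCGGGAA and the ETS core CCGGAAGT. The CRE and a YY1 core were searched as well and are in none of the 6 stretches. UQCRB and ENY2 had no matched entry. RPS6KA2 and CD2AP had one but are not printed. In the same 120 bases RPS6KA2 holds a CCAAT box and no GC box, and CD2AP holds the GC box. The stretches lie at chr11:110429828-110429947 on the plus strand for FDX1, chr11:43311876-43311995 on the plus strand for API5 and chr4:15655358-15655477 on the minus strand for FBXL5. For HIRA the stretch is chr22:19431734-19431853 on the minus strand, for TWF1 chr12:43806318-43806437 on the minus strand and for IL6ST chr5:55994964-55995083 on the minus strand.
FDX1: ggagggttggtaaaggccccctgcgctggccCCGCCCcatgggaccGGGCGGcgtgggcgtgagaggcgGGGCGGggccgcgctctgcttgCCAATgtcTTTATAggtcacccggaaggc
API5: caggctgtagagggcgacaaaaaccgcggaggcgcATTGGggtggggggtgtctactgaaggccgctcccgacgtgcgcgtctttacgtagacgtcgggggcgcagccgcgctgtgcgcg
FBXL5: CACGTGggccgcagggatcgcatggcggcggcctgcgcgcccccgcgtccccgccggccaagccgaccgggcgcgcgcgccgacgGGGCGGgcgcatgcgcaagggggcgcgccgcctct
HIRA: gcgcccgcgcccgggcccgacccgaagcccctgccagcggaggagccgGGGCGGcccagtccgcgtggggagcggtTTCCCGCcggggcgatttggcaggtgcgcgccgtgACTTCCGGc
TWF1: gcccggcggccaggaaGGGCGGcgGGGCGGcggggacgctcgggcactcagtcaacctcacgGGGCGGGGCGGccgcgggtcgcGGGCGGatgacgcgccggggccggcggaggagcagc
IL6ST: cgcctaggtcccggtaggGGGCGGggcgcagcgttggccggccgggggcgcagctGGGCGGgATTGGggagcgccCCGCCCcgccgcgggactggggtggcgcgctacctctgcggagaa
The stretches of FDX1, FBXL5, HIRA, TWF1 and IL6ST hold the GC box, that of API5 holds a CCAAT box alone, and 2 of the GC boxes in TWF1 overlap. Over the full 300-base windows, the GC box was found in 50 of 67 member promoters (74.6%), against 72.5% of 6569 promoters of genes at the signal floor and 44.6% of all 27305. The CCAAT box was in 38.8% of members, 38.7% of genes at the floor and 35.7% of all. The E-box CACGTG was in 11 member promoters (16.4%, against 11.2% and 7.43%), and the CRE TGACGTCA in 4 (5.97%, against 3.73% and 1.98%). The remaining motifs were found in 5.97% (YY1 core AAGATGGCG), 5.97% (TATA box), 10.4% (E2F core) and 11.9% (ETS core) of member promoters. In genes at the floor these shares were 4.95%, 4.73%, 11.6% and 11%. Median GC content was 66.7% in members, 65.3% in genes at the floor and 58.3% in all promoters. Such a match is a string of letters, not a shown binding site, and no 2 members were neighbours in gene order with no other gene at the floor between them.

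Across the 80 genes, each taken at its member probe set with the lowest mean ratio, the dosed over undosed ratio became lower with time. Its median was 0.687 at 24 h, 0.628 at 32 h and 0.562 at 48 h, while over all probe sets at the floor it was 1.00, 1.01 and 1.01. The ratio at 48 h was below that at 24 h in 75 genes, and it fell at each step in 54. The lowest of the 3 ratios was at 48 h in 65 genes, where 36.9% of all probe sets at the floor had theirs. It was at 32 h in 13 and at 24 h in IL6ST and DNAJC14. These ratios chose the members, so they are a description with no test, and in RNA from a whole culture fewer cells with a transcript and less of it per cell cannot be told apart.

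**Figure D1:**
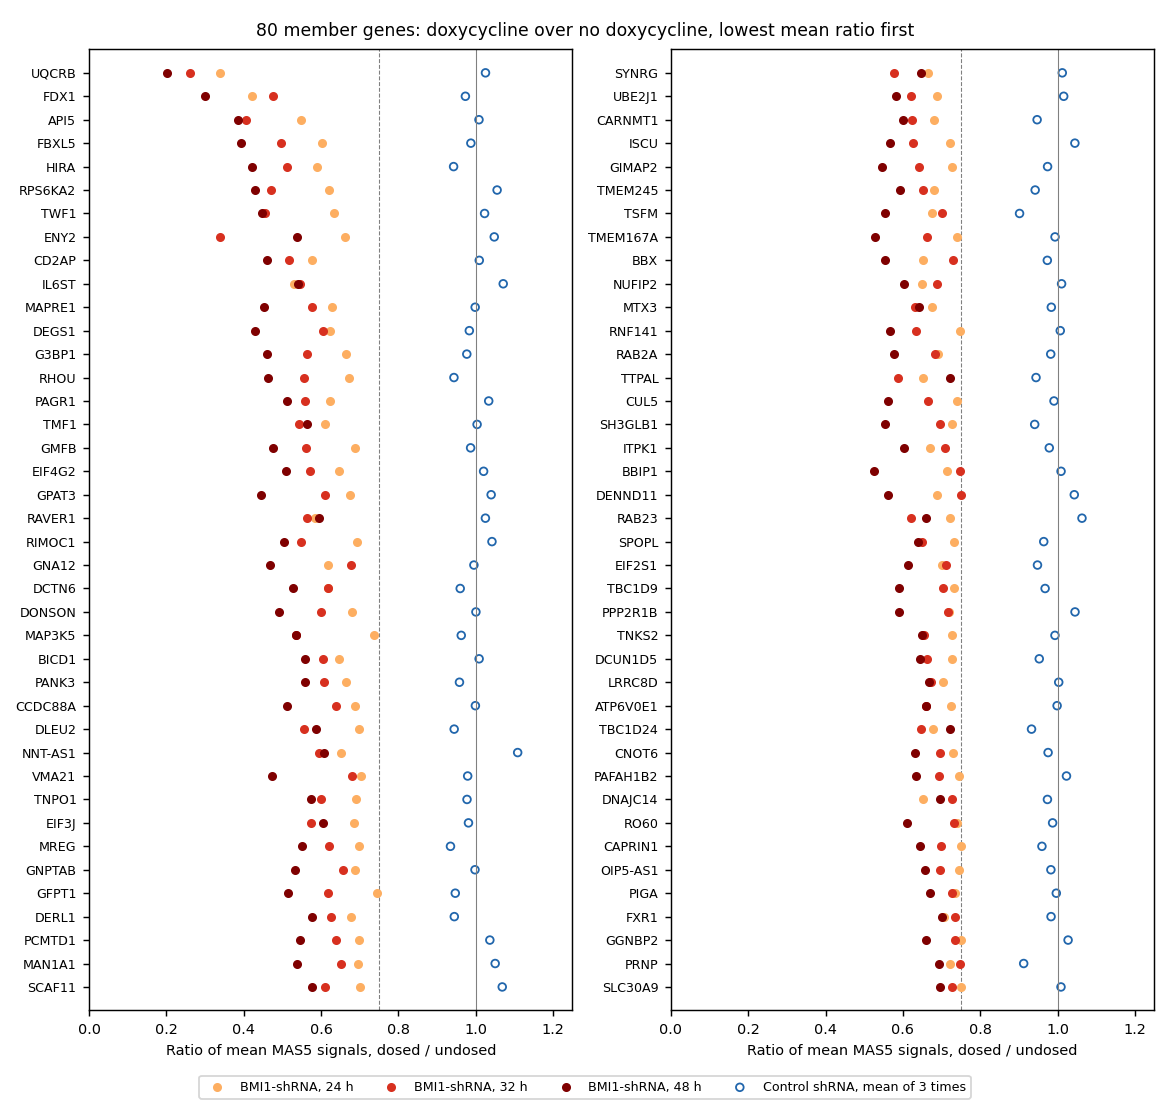
Ratio of mean MAS5 signals with over without doxycycline (horizontal axis) for each of the 80 genes (vertical axis, lowest mean ratio first), at 24, 32 and 48 h in the BMI1-shRNA line (filled points) and as the mean of 3 times in the control line (open circles). The dashed line is the limit of 0.75 that chose the members. The 48 h point is the leftmost in 65 genes, and the control circles lie between 0.901 and 1.11.

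Single arrays separated cleanly in the BMI1-shRNA line. At each of the 3 times the 3 dosed arrays lay below the 3 undosed ones in 80 of 80 genes, where 3.28% of probe sets at the floor did so, a separation the ratio limit nearly requires. All 9 dosed arrays lay below all 9 undosed ones in 79 genes, against 2.3% of probe sets. The exception was CARNMT1, whose highest dosed array read 110.0 and lowest undosed array 100.0. All 9 dosed arrays also lay below the 3 arrays at 0 h in 79 genes, against 8.1%, the exception being CAPRIN1, at 167.4 against 166.4. The ratio limit largely fixes both of these counts too, since levels at 0 h lay near the undosed ones (median ratio 1.02). They are a description and no independent support. The count against 0 h rests on the arrays with conflicting labels, while that against the 9 undosed arrays does not. In the control line the groups overlapped at all 3 times in 54 genes and separated in one direction or the other at 1 time in 24. FDX1 separated at 3 times there and DCUN1D5 at 2, and 27% of probe sets at the floor separated at least once.

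The rule's limit has no gap around it. Just inside lay SLC30A9, GGNBP2, CAPRIN1, DENND11 and the second probe set of GNA12, whose highest of 3 ratios ran from 0.7484 to 0.7499. Just outside lay SPOPL (its other probe set), CHRM3, PRNP (its other probe set), ALDH3A2 and BBX (its other probe set), from 0.7511 to 0.7531.

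Mitochondrial electron transfer and iron genes held the 2 lowest mean ratios. UQCRB, a subunit of respiratory complex III, had a mean ratio of 0.267, the lowest of all members, on probe set 209065_at. Its undosed signals in the BMI1-shRNA line were 289.5, 303.2 and 260.6 at 24 h, 302.4, 307.8 and 285.9 at 32 h, and 243, 306.3 and 311.3 at 48 h. The dosed ones were 83.5, 95 and 110.3 at 24 h, 71.5, 76.4 and 85.4 at 32 h, and 45.4, 69.1 and 58.5 at 48 h. No dosed array reached even the lowest undosed one, and the mean of 9 arrays was 290.0 ± 23.6 without and 77.2 ± 19.3 with doxycycline (SD, n = 9). In the control line the lowest, median and highest signals were 211.3, 261.5 and 286.3 without and 233.3, 263.6 and 307.7 with doxycycline, so the groups overlapped. The other 2 UQCRB probe sets at the floor did not share this: 205849_s_at had a mean ratio of 0.974 and 209066_x_at one of 0.997, at mean undosed signals of 6416 and 5682.

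FDX1 encodes ferredoxin 1, which hands electrons to mitochondrial cytochrome P450 enzymes and serves protein lipoylation. On 203646_at its undosed signals in the BMI1-shRNA line were 356.1, 519.1 and 448.4 at 24 h, 288.6, 405.6 and 335.8 at 32 h, and 330.5, 251.6 and 320.1 at 48 h. With doxycycline they were 179.7, 171 and 205.7, then 155.9, 98.2 and 236.6, then 107.6, 45.9 and 116.2. Every dosed array lay below every undosed one, although the undosed arrays at 48 h also lay below the 551.9, 474.9 and 443.1 at 0 h. Its undosed level at 0 h was 1.35 times the mean at 24 to 48 h, the highest such ratio among the lead probe sets, whose median was 1.02. The mean ratio was 0.399, and its second member probe set, 203647_s_at, had 0.556. Control ratios of 203646_at were 0.934, 0.791 and 1.19 at 24, 32 and 48 h, and the control groups did not overlap at any time, in differing directions.

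FBXL5, the iron-sensing F-box protein that marks IRP2 for destruction, read 162.5, 157.8 and 128 at 24 h, 157.5, 151.1 and 165.8 at 32 h, and 154.3, 155.7 and 170.2 at 48 h without doxycycline on 209005_at. With it the signals were 82, 93.3 and 94.9, then 69.6, 81.1 and 84.9, then 75.2, 62.9 and 51. The 9-array means were 156 ± 12.02 and 77.2 ± 14.2 (SD, n = 9), with no overlap. Control arrays had medians of 147.3 without and 145.1 with the drug, over ranges of 114.7 to 169 and 123.5 to 165, which overlap. A second FBXL5 probe set, 209004_s_at, had a ratio of 1.04.

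The other 3 genes of this mitochondrial and iron group had smaller differences. ISCU, the scaffold for iron-sulphur clusters, had a mean ratio of 0.637, TSFM, a mitochondrial elongation factor, 0.643, and MTX3, of the metaxin import proteins, 0.649. The median over the 6 genes of the group, FBXL5 among them, was 0.567, and at 48 h alone it was 0.474. It takes each gene at its lowest member probe set, and 2 of the 6, UQCRB and FBXL5, had another probe set at the floor above 0.9.

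Of genes linked to survival and DNA, API5 (apoptosis inhibitor 5) read lowest. On 201687_s_at its undosed signals were 1097.9, 1059.2 and 1023.5 at 24 h, 1109.2, 1016.3 and 1181.9 at 32 h, and 987.8, 1029 and 1111.4 at 48 h. With doxycycline they were 522, 592.9 and 630.8, then 434.8, 402.5 and 503.7, then 397.6, 412.5 and 392.5. The 2 sets of 9 arrays were far apart, 1068 ± 61.4 and 476.6 ± 90.0 (SD, n = 9), and the control line overlapped, from 1072.5 through a median of 1186.3 to 1285.9 without and from 1083.6 through 1193.8 to 1305.7 with doxycycline. Its mean ratio was 0.446, and 2 more member probe sets had 0.571 and 0.599. Another API5 probe set at the floor, 214960_at, which was no member, had ratios of 1.12, 0.918 and 0.623 at 24, 32 and 48 h. The other members of the group were DONSON, a replication fork protein (0.591), GIMAP2, a lymphocyte GTPase (0.638), and TNKS2, a tankyrase (0.677).

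The chromatin and transcription genes were HIRA, ENY2, PAGR1 and BBX. HIRA, the chaperone that deposits histone H3.3, read 529.7, 494.7 and 484.1 at 24 h, 523.5, 483.8 and 405.4 at 32 h, and 451.2, 433 and 482.9 at 48 h without doxycycline. Dosed arrays read 267.8, 313.5 and 307.3, then 234.6, 239.3 and 248.1, then 203.7, 201.2 and 171.2. They stepped down with time and stayed below every undosed array, while control arrays overlapped at medians of 481.7 without (397 to 516.2) and 444.1 with doxycycline (366.8 to 482.6). The mean ratio was 0.507, and no other HIRA probe set reached the signal floor.

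ENY2, shared by the SAGA deubiquitinase module and the TREX-2 messenger RNA export complex, was dim and scattered on 226776_at. Undosed signals were 130.5, 88.2 and 135.6 at 24 h, 137, 168.3 and 158.7 at 32 h, and 109.3, 116 and 98.4 at 48 h. Dosed ones were 86.3, 61.8 and 86.4, then 39.1, 48.3 and 69.6, then 59.1, 42.6 and 72.5. At 24 h the groups were separated by less than their own spread, and the lowest ratio, 0.338, was at 32 h. Control arrays ran from 95 through a median of 122.4 to 172.4 without and from 111 through 136.6 to 154 with doxycycline. The other 2 ENY2 probe sets at the floor had mean ratios of 0.787 (226775_at) and 1.02 (218482_at). PAGR1, a partner of the MLL3 and MLL4 histone methyltransferases, had a mean ratio of 0.565, with 531.6 ± 31.6 without and 299.97 ± 29.8 with doxycycline (SD, n = 9). BBX, an HMG-box protein, had 0.645.

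Among receptors and signalling genes, IL6ST is of direct interest in myeloma: it encodes gp130, the signalling chain shared by the receptors of interleukin 6, a growth factor of these cells, and its relatives. On 212196_at its undosed signals were 781.5, 703.6 and 686 at 24 h, 684.8, 677.8 and 715.1 at 32 h, and 595.5, 620.4 and 717.1 at 48 h. With doxycycline they were 384.2, 358 and 409, then 362.6, 381.3 and 391.3, then 355.3, 342.1 and 347.6. Dosed arrays lay close together at every time, without the step down seen in most members: the ratios were 0.530, 0.546 and 0.541. All 5 IL6ST probe sets at the floor were members, the others with mean ratios of 0.561, 0.610, 0.634 and 0.642. In the control line 212196_at ran from 872.9 through a median of 951.2 to 1038.4 without and from 939.3 through 999.6 to 1121.2 with doxycycline, with a mean ratio of 1.07.

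RPS6KA2, a kinase of the RSK family that acts below ERK, read 171.2, 186.4 and 205.6 at 24 h, 202.4, 188.2 and 242.5 at 32 h, and 205.6, 225.8 and 212.9 at 48 h without doxycycline on 212912_at. Dosed signals were 116.8, 114 and 119.1, then 87.3, 113.9 and 97.1, then 74.5, 100.1 and 102.5. Every dosed array was below every undosed one, and the control groups overlapped, at medians of 289.8 (265 to 348.2) and 314.8 (278.2 to 362.8). The mean ratio was 0.508, and 0.707 on its second member probe set. The remaining signalling members were RHOU (0.564), GNA12, a G protein subunit (0.587), MAP3K5, the stress kinase ASK1 (0.601), ITPK1, an inositol phosphate kinase (0.660), and PPP2R1B, a scaffold of phosphatase PP2A (0.675).

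The 8 genes of actin, microtubules and motors had mean ratios from 0.511 to 0.690. TWF1 encodes twinfilin, which binds actin monomers. Its undosed signals on 201745_at were 566.7, 588.9 and 542.8 at 24 h, 653.6, 639.8 and 692 at 32 h, and 547.8, 547.2 and 577.1 at 48 h. Dosed signals were 319.5, 367.1 and 387.4, then 231.4, 310.6 and 360.3, then 219.4, 236.8 and 291.3. The groups were apart at every time, while the control arrays overlapped, at medians of 667.6 (577.4 to 760.4) without and 698.8 (588.3 to 798.9) with doxycycline. Its second member probe set had a mean ratio of 0.601.

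CD2AP, an adaptor between membrane receptors and actin, had a mean ratio of 0.518 on 203593_at. It read 750.6, 636.6 and 732.8 at 24 h, 604.5, 593.4 and 766.2 at 32 h, and 676.1, 568.1 and 588.1 at 48 h without doxycycline. With it the signals were 493.1, 325.9 and 401.9, then 313, 359.9 and 341.2, then 259.1, 250.3 and 335.6. One dosed array at 24 h stood well above the other 2 but below all undosed ones, and the control groups overlapped over 458 to 679.6 (median 577.6) and 435.7 to 759 (median 574.9). The others were MAPRE1, the microtubule end-binding protein EB1 (0.552, and 0.619 on a second member probe set), GMFB, which acts on actin branches (0.575 and 0.594), DCTN6, a dynactin subunit (0.588), and BICD1, a dynein adaptor (0.603). CCDC88A, the actin-binding protein girdin, had 0.612, and PAFAH1B2, a partner of the dynein regulator LIS1, 0.690.

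**Figure D2:**
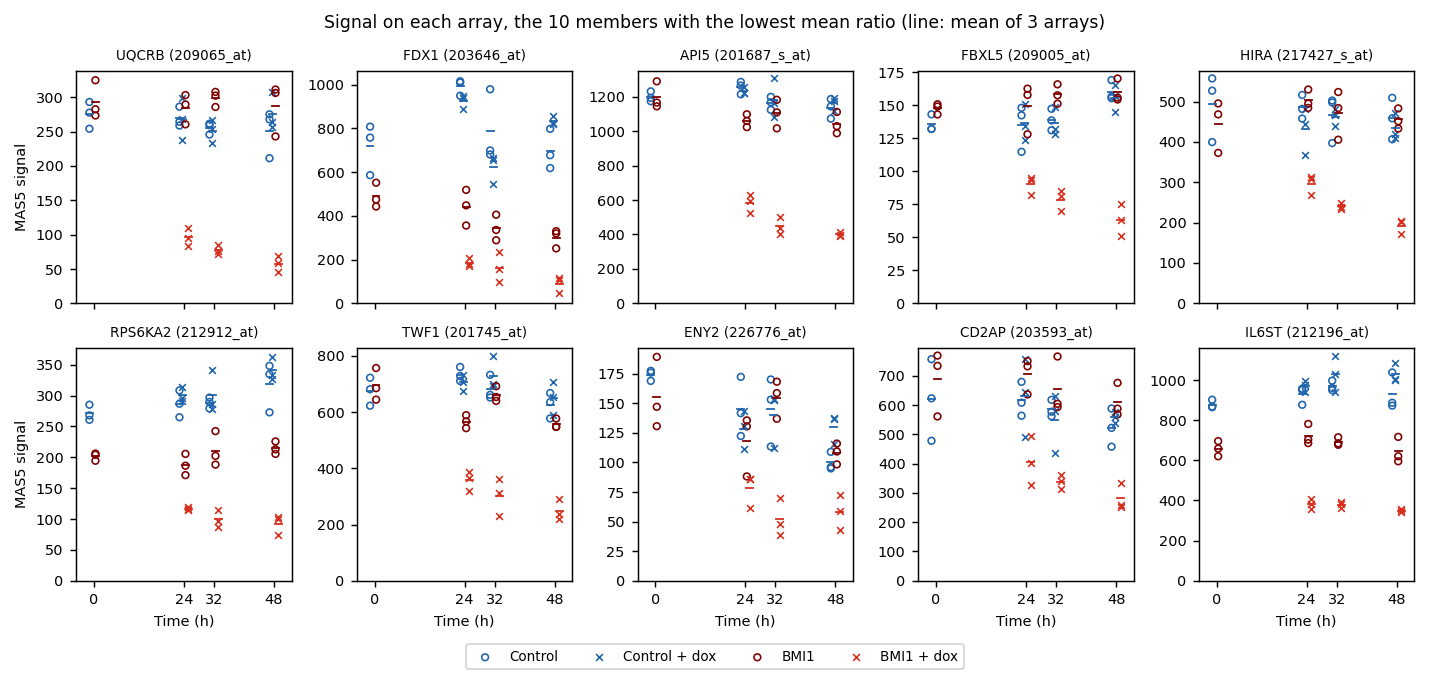
MAS5 signal (vertical axis, linear, from 0) on each of 42 arrays for the 10 genes with the lowest mean ratio, by time (horizontal axis, h), with points set slightly apart by group and a short line at each mean of 3. Crosses of the dosed BMI1-shRNA line lie below its open circles in all 10 panels, by little at 24 h in ENY2. FDX1, RPS6KA2 and IL6ST also read lower in the BMI1-shRNA line than in the control line without doxycycline.

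The largest group, 16 genes of the Golgi, endosomes and lysosomes, had mean ratios from 0.571 to 0.682 and a median of 0.647. Golgi members were TMF1, a golgin tether (0.571), MAN1A1, a mannosidase that trims N-glycans (0.629), RAB2A, a GTPase of traffic between endoplasmic reticulum and Golgi (0.651), SYNRG, a partner of the clathrin adaptor AP-1 (0.629), and TMEM167A (0.643). GNPTAB, the enzyme that puts the mannose 6-phosphate tag on lysosomal enzymes, had 0.626, with 2465 ± 227.7 without and 1548 ± 259.9 with doxycycline (SD, n = 9). The proton pump of these organelles was represented by VMA21, its assembly factor (0.618), and ATP6V0E1, a membrane subunit (0.681, 0.684 and 0.708 on 3 member probe sets). Small GTPase regulators and their targets were RIMOC1 (0.581), DENND11 (0.666), RAB23 (0.668), and the TBC-domain genes TBC1D9 (0.675) and TBC1D24 (0.682). MREG (0.623), SH3GLB1, a membrane-bending protein of autophagy and mitochondria (0.658), and BBIP1, of the BBSome coat of cilia (0.662), completed the group.

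The 11 translation and messenger RNA genes had mean ratios from 0.563 to 0.714. EIF4G2, a relative of the scaffold factor eIF4G, was the brightest member, at 6708 ± 444.6 without and 3863 ± 540.8 with doxycycline (SD, n = 9), a mean ratio of 0.575. Other initiation factor genes were EIF3J (0.622) and EIF2S1, the alpha subunit of eIF2 that stress kinases phosphorylate (0.674). G3BP1 (0.563), NUFIP2 (0.647), CAPRIN1 (0.697) and FXR1 (0.714) encode RNA-binding proteins found in stress granules. The splicing-linked RAVER1 and SCAF11 had 0.580 and 0.629, CNOT6, a deadenylase subunit, 0.686, and RO60, which binds Y RNAs, 0.694.

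The remaining groups were smaller. In lipid, cofactor and sugar metabolism the 6 genes were DEGS1, the desaturase that completes ceramide (0.553), GPAT3, of triglyceride synthesis (0.577), PANK3, of coenzyme A synthesis (0.610), GFPT1, the first enzyme of the hexosamine pathway (0.626), CARNMT1 (0.634) and TTPAL (0.654). Endoplasmic reticulum genes were DERL1 and UBE2J1, both of the degradation of misfolded proteins (0.626 and 0.631), DNAJC14, a chaperone (0.691), and PIGA, of GPI anchor synthesis (0.711). Ubiquitin ligase genes were PCMTD1 (0.627), RNF141 (0.649), CUL5, a cullin scaffold (0.655), SPOPL, a substrate adaptor (0.673), and DCUN1D5, which helps neddylate cullins (0.677). TNPO1, the import receptor transportin 1, had 0.620. The non-coding RNA genes DLEU2 (host of the miR-15a and miR-16-1 hairpins), NNT-AS1 and OIP5-AS1 had 0.614, 0.618 and 0.699. TMEM245 (0.641), LRRC8D, of the volume-regulated anion channel (0.681), GGNBP2 (0.714), PRNP, the prion protein (0.720), and SLC30A9, a zinc transporter (0.724), had the smallest differences as a group.

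**Figure D3:**
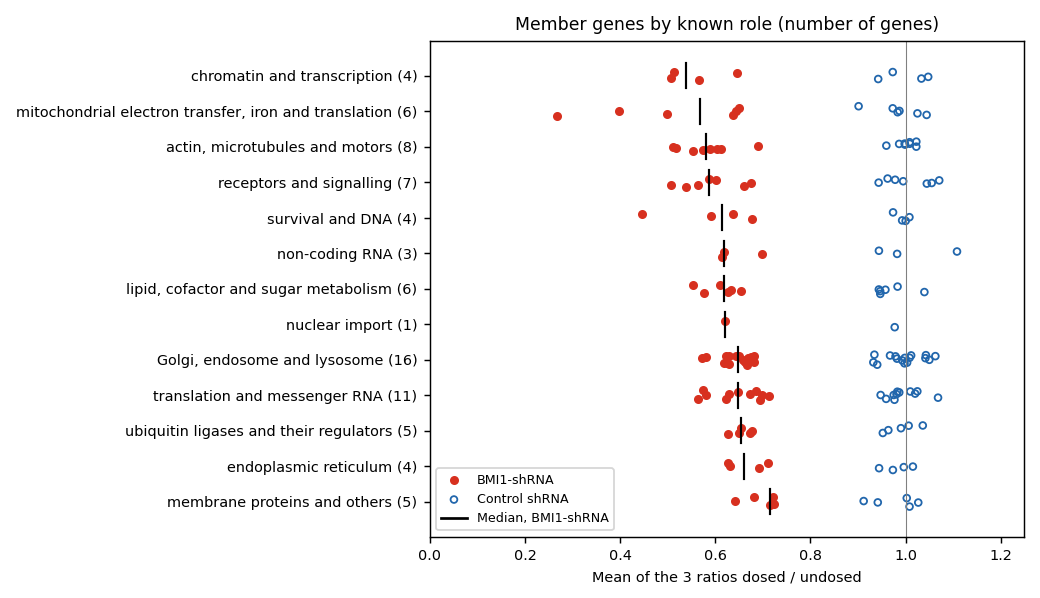
Mean of the 3 dosed over undosed ratios (horizontal axis) for each of the 80 genes, by known role (vertical axis, number of genes in brackets), in the BMI1-shRNA line (filled) and the control line (open), with a vertical bar at the BMI1-shRNA median. Medians run from 0.539 for the 4 chromatin genes to 0.714 for the 5 membrane and other genes, with wide overlap between roles.

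Probe sets of one gene often disagreed. Besides the members, 68 of the 80 genes had 179 other single-symbol probe sets, of which 86, in 47 genes, reached the signal floor. Their mean ratio had a median of 0.866 and ran from 0.624 to 1.06. It was at most 0.75 in 24, between 0.75 and 0.9 in 30 and above 0.9 in 32. In 18 genes at least 1 other probe set at the floor lay above 0.9: UQCRB, FBXL5, ENY2, G3BP1, DLEU2, TNPO1, GFPT1, SYNRG, UBE2J1, TMEM167A, RNF141, RAB2A, SH3GLB1, BBIP1, CNOT6, CAPRIN1, FXR1 and SLC30A9. TNPO1 had 0.620 on 212635_at and 0.879 to 1.05 on 6 others. For G3BP1, 225007_at and 242422_at had 0.563 and 0.647 and the other 2 had 0.881 and 0.930. For DLEU2 the member had 0.614 and the other 1.06, and both are of the type marked x_at, whose probes can match several transcripts.

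In 7 genes all probe sets at the floor, at least 2 each, were members: FDX1, RPS6KA2, TWF1, IL6ST, MAPRE1, GMFB and GNA12. In 10 more, among them TMF1, MAP3K5, VMA21, MAN1A1 and PRNP, the other probe sets had mean ratios of at most 0.75, and in 19, among them API5, DEGS1 and RHOU, the highest lay between 0.75 and 0.9. The remaining 26 genes, HIRA, CD2AP, PAGR1 and EIF4G2 among them, had a single probe set at the floor and so no second reading. What part of each transcript a probe set reads was not used here, so whether probe sets that disagree read different transcripts was not tested.

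**Figure D4:**
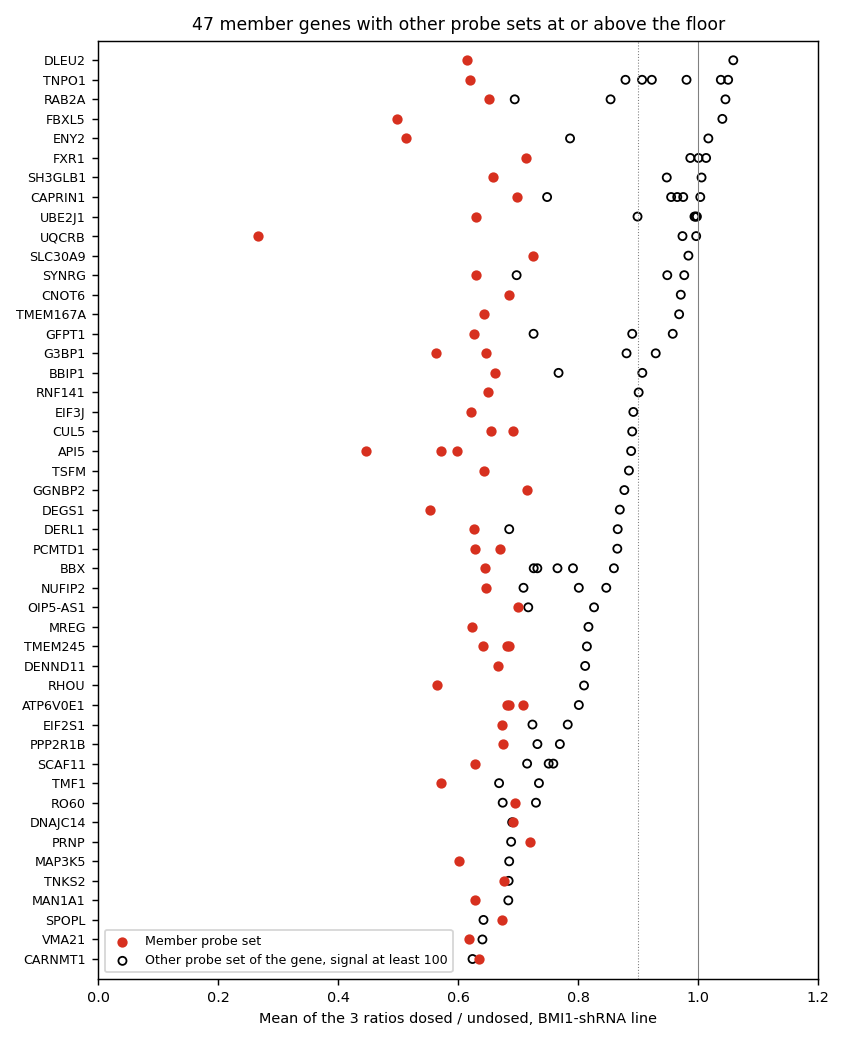
Mean of the 3 dosed over undosed ratios in the BMI1-shRNA line (horizontal axis) for member probe sets (filled) and the other probe sets at the signal floor (open) of the 47 member genes that have such others (vertical axis, ordered by their highest open circle). Open circles right of the dotted line at 0.9 belong to 18 genes, UQCRB, FBXL5 and TNPO1 among them.

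The lines differed before induction, in a comparison whose arrays the rule did not use, although its floor was set on the BMI1-shRNA line alone. At 0 h, with limma and Benjamini-Hochberg adjustment over 28474 probe sets, 17 of the 99 member probe sets (17.2%) were higher in the BMI1-shRNA line than in the control line and 18 (18.2%) were lower, at an adjusted p under 0.05. The 17 include RHOU and CCDC88A, which met the floor only through the line in which they are high. Of all probe sets 11.6% were higher and 12% lower, and of those at the floor 19.5% and 17.8%, so the members' shares were near those of other probe sets as bright. The median member difference was -0.04 on the log2 scale, and -0.01 over all probe sets. The GAPDH signal at the 3-prime end over that at the 5-prime end, which tracks how intact RNA is, was 0.933 ± 0.0160 in the BMI1-shRNA line and 1.06 ± 0.0463 in the control line at 0 h (SD, n = 3). The same ratio for ACTB was 1.14 ± 0.0173 and 1.15 ± 0.0316 (SD, n = 3), so it was near the same in both lines. The part of RNA quality in the line differences was not tested.

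RHOU had the highest difference. Its 3 arrays at 0 h on 223168_at read 390.7, 393.1 and 360.9 in the BMI1-shRNA line and 56.3, 71 and 62.6 in the control line, a log2 difference of 2.50 ± 0.09 (SE from limma). With doxycycline it read 217.7 ± 30.6 in the BMI1-shRNA line, still above the 76.6 ± 7.60 of the undosed control line (SD, n = 9). CCDC88A on 225045_at read 109.5, 104.4 and 103.3 against 47.4, 22.4 and 25.2, a difference of 1.64 ± 0.18 (SE from limma). In both genes the lines did not overlap. Their control levels lay under 100, so they met the floor only through the line in which they are high, and their differences are given as a description. RNF141, BICD1 and MAN1A1 were higher by 0.83 ± 0.10, 0.66 ± 0.08 and 0.59 ± 0.10 (SE from limma), their means at 0 h being 526.9 against 294.0, 557.1 against 351.3 and 1438 against 951.3.

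Members lower in the BMI1-shRNA line at 0 h included all 5 IL6ST probe sets. On 212195_at, IL6ST read 2223.3, 2298.5 and 1603.6 against 3187.3, 2798.7 and 3012, and the log2 differences of 204863_s_at, 212195_at and 211000_s_at were -0.58 ± 0.12, -0.57 ± 0.11 and -0.55 ± 0.12 (SE from limma). The lead probe set 212196_at differed by -0.41 ± 0.07 (limma, adjusted p = 1.67e-05), from 878.4 ± 20.6 in the control to 658.5 ± 37.8 (SD, n = 3). FXR1 read 324, 315.1 and 323.1 against 506.1, 448 and 484.9 on 201636_at, a difference of -0.57 ± 0.06 (limma, adjusted p = 6.39e-09). DEGS1 read 714.3, 713 and 652.9 against 1006.2, 1132.2 and 945.7 on 209250_at, -0.56 ± 0.08 (limma, adjusted p = 3.44e-07). For these probe sets of IL6ST, FXR1 and DEGS1 no array of one line reached the other's range.

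**Figure D5:**
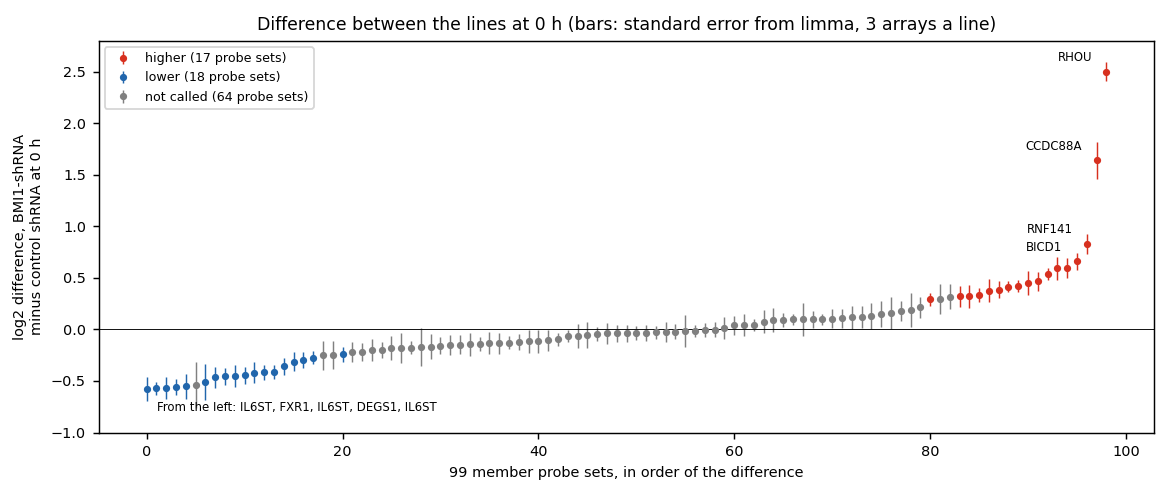
Difference between the BMI1-shRNA and control-shRNA lines at 0 h (vertical axis, log2) for the 99 member probe sets in order (horizontal axis), with the standard error from limma (3 arrays a line). Red marks the 17 called higher, blue the 18 called lower and grey the rest. RHOU, at 2.50, and CCDC88A, at 1.64, stand apart and met the signal floor only through the BMI1-shRNA line.

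Because of the conflicting labels at 0 h, the lines were also compared without doxycycline at 24, 32 and 48 h, over 9 arrays a line. The rule used those arrays of the BMI1-shRNA line for its signal floor and both lines' for its ratios, so these counts are a description and no independent support. Of the 35 member probe sets called at 0 h, 34 (97.1%) were called in the same direction there and none in the opposite one. Of all probe sets called at 0 h, 86.4% (5801 of 6711) were called in the same direction, and 88.2% of those at the floor. At these later times 21 of the 99 member probe sets were called higher and 41 lower, where limma called 18.9% and 20.2% of all probe sets and 28.6% and 28.8% of those at the floor. In all 11125 probe sets were called there and 6711 at 0 h, from comparisons that differ both in their times and in their number of arrays.

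Few members were called for time in culture, and few other probe sets were. In the control line, 48 h against 0 h without doxycycline, limma called 1 of 99 member probe sets higher and 1 lower, where 2.11% and 1.85% of all probe sets and 3.67% and 3.81% of those at the floor were called. At an unadjusted p under 0.05 in limma, 16 of the 99 passed, where 16.8% of all probe sets and 24.8% of those at the floor did. On simulated data this comparison found 33% of log2 0.5 and 62% of log2 1 changes. Those shares are over all probe sets fitted and were not worked out for the members. Standard errors of the members in limma ran from 0.056 (PAFAH1B2) to 0.22 (FDX1 on 203646_at). Log2 differences not called ran from -0.29 ± 0.098 (RNF141) to 0.315 ± 0.105 (RPS6KA2 on 204906_at, SE from limma). Members not called may thus still have moved. CCDC88A rose from 31.7 ± 13.7 to 63.3 ± 13.0 (SD, n = 3), by 0.93 ± 0.18 on the log2 scale (limma, adjusted p = 0.000973). Fitted on the 2 groups alone, that call was lost, with a limma adjusted p of 0.13. ENY2 on 226776_at fell from 177.5, 169 and 176 to 109, 95 and 96.1, by 0.77 on the log2 scale (SE 0.19, limma adjusted p = 0.00976).

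Other genes of related pathways were taken from 12 lists and from 33 families that share the leading letters of a member's symbol, with members left out and each gene read on its brightest probe set. Over the mean of 3 times in the BMI1-shRNA line, limma called 2.89% of all probe sets higher and 3.98% lower with doxycycline. Of those at the floor it called 5.31% higher and 7.75% lower. The list counts that follow were not tested against either share. Of 17 PRC1 subunits 2 rose and 1 fell: PCGF3, a BMI1 relative, by 0.51 on the log2 scale (SE 0.10), with CBX6 up 0.21 ± 0.05 and RING1, the catalytic partner of BMI1, up 0.11 ± 0.03. Of 29 Rab GTPase-activating proteins with a TBC domain, the family of TBC1D9 and TBC1D24, 1 (RABGAP1, by 0.16 on the log2 scale) rose and 3 fell. EVI5, which binds Rab11, was the largest, from a mean signal of 110 to 24.6, a log2 difference of -1.96 ± 0.12 (limma, adjusted p = 6.77e-16). Of 14 Rab11 recycling partners, MYO5B, a motor of recycling endosomes, fell by 0.27 and VPS54 rose by 0.15.

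Of 12 microRNA processing and silencing genes 4 rose and 1 fell. The 3 TNRC6 genes, whose proteins link Argonaute to deadenylases, split: TNRC6C rose by 0.47 ± 0.07 and TNRC6A by 0.38 ± 0.05, while TNRC6B fell by 0.21 on the log2 scale (SE 0.06). AGO3, an Argonaute, rose by 0.25 ± 0.05. The TNRC6B call was lost in 3 alternative settings and without single arrays in 11 cases, with limma adjusted p up to 0.131. The list's median was 0.12, against 0.02 over all probe sets.

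Outside the members, secretory and carrier genes showed single changes. Of 27 genes of the COPI and COPII coats and Golgi tethers none rose and 3 fell, SEC24B by 0.24, TRAPPC4 by 0.23 and GORASP2 by 0.14 on the log2 scale, with a list median of -0.03. Of 28 mitochondrial carriers and sideroflexins 2 rose and 2 fell. SLC25A32, which carries folate into mitochondria, was the largest, from 1860 to 1260, -0.56 ± 0.07 (limma, adjusted p = 5.86e-08), followed by SLC25A24 at -0.25. SLC25A1, the citrate carrier, and SLC25A38 rose by 0.21 and 0.20. Among 24 nuclear import and export receptors TNPO2, the close relative of TNPO1, rose by 0.27 ± 0.05 and IPO8 fell by 0.16 on the log2 scale.

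Set against the control line's own doxycycline effect, limma called 5 of the list and family genes higher and 14 lower. It called 0.952% of all probe sets higher and 2.12% lower, and 1.79% and 4.4% of those at the floor. Brighter probe sets were thus called more often, and list and family genes were each read on their brightest one. The lists held 12 to 29 measured genes each and the families 1 to 34, with some genes in both. Their total was not counted, so the 5 and 14 calls are not given as shares. Whether these genes exceeded either share was not tested. EVI5, SLC25A32, TRAPPC4, SEC24B and GORASP2 were among the lower ones, and TNRC6A, TNRC6C and TNPO2 among the higher ones.

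The other lists held few calls. Of 14 inhibitor of apoptosis and API5 partner genes none rose and 2 fell, DIABLO by 0.11 and BAG1 by 0.12 on the log2 scale, and both calls were lost in some settings. Of 18 aminoacyl-tRNA synthetases HARS1 fell by 0.19, of 21 ubiquitin-conjugating enzymes UBE2L6 fell by 0.13, and of 23 phosphatase subunits PPP2R2A fell by 0.25 on the log2 scale. Of 19 interferon-stimulated genes IFIT1 rose by 0.81 ± 0.17, from a mean signal of 43.9 to 75.2, and ISG20 fell by 0.23 on the log2 scale, a call lost in 5 of 10 settings. In the 33 symbol families, of 1 to 34 measured genes each, limma called 4 genes higher (FBXL16, PANK1, TNPO2, UBE2D4) and 8 lower (CNOT8, CUL1, DCTN4, DNAJC12, RPS6KA3, TBC1D7, TBC1D23, UBE2L6). RPS6KA3, the RSK kinase closest in name to RPS6KA2, fell by 0.28 on the log2 scale (SE 0.05), while FDX2 and DEGS2, the only measured relatives of FDX1 and DEGS1, were not called. The calls of RABGAP1, RING1, VPS54, UBE2L6 and FBXL16 were lost in at least 1 alternative setting, and those of SLC25A1, TBC1D7 and UBE2D4 without single arrays.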

How the data were processed

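RNA of 42 samples was hybridised, 1 array each, to Affymetrix U133 Plus 2 arrays. The deposited values are linear MAS5 intensity per probe set, per the submitters' processing notes, which give no version; the genome build is not given in the sources used here. Arrays have no read depth, and 3 arrays a group limit the precision. The members and the gene lists were chosen with earlier results of these data known, and the grouping by role was made after the values were seen. Ratios are of group means of the deposited intensity.

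Tests were run in R 4.3.3 with limma 3.58.1, by lmFit, contrasts.fit and an eBayes step with trend, on log2(signal + 5.4), 5.4 being the 25th percentile of all values, so differences of dim probe sets are understated. All 14 groups entered 1 fit of the 28474 single-symbol probe sets that read at or above the array median on at least 3 arrays, with 28 residual degrees of freedom. Tests were two-sided, with Benjamini-Hochberg adjustment and a threshold of 0.05. Members were not tested in the doxycycline contrasts that chose them. On simulated data with 28474 probe sets, 35% of log2 0.5 changes and 69% of log2 1 changes were found in the line difference at 0 h, with 8 false calls. The shares were 56% and 83% for doxycycline in the BMI1-shRNA line, with 10 false calls. They were 33% and 62% for 48 h against 0 h in the control line, with 4 false calls. For the difference of doxycycline effects they were 49% and 63%, with 5 false calls.

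Every array of the 10 members with the lowest mean ratio is given, and the 5 called members with the largest differences each way are named for the line and time comparisons; from lists at most 4 called genes are named. Numbers did not pair arrays: deviations from group means correlated at a mean r of 0.00216 across probe sets for the same number and -0.00108 for different numbers. Alternatives were other limits, pseudocounts, filters and normalizations, the brightest probe set, fewer groups, a replicate block and single arrays left out.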

Additional observations from a re-analysis of the deposited data

Results flagged for a closer look

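No member is listed here, because members were not tested for a difference between the lines' doxycycline effects. Among the list and family genes, 19 had a doxycycline effect in the BMI1-shRNA line that differed from that in the control line (limma, interaction of line and doxycycline, mean of 3 times, adjusted p under 0.05). Of all probe sets 0.952% were called higher and 2.12% lower, and of those at the floor 1.79% and 4.4%. How many list and family genes were tested in all was not counted, so the 19 are not given as a share. The log2 differences of effects were -1.81 for EVI5, -0.618 for SLC25A32, -0.34 for TNRC6B, -0.282 for SLC25A24, -0.274 for SEC24B, -0.259 for PPP2R5E and -0.254 for TRAPPC4. They were -0.249 for PPP2R2A, -0.242 for RPS6KA3, -0.205 for DCTN4, -0.205 for DNAJC12, -0.195 for GORASP2, -0.191 for CUL1 and -0.16 for IPO8. They were 0.25 for AGO3, 0.254 for DENND1B, 0.33 for TNRC6A, 0.391 for TNPO2 and 0.474 for TNRC6C. The calls of AGO3, DENND1B, DNAJC12, IPO8, PPP2R5E and RPS6KA3 were lost without single arrays, and those of AGO3, DENND1B, DNAJC12, IPO8 and PPP2R5E also under another setting. No group had 4 or more arrays, so single arrays were not tested as outliers.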

How the results depend on the processing

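Members numbered 52 probe sets at a ratio limit of 0.70 and 164 at 0.80, against 99; group medians gave 110, quantile normalization 112, a floor of 200 gave 80 and of 50 gave 116, and a control window at each time 91. Without single arrays the number ran from 94 to 114, and 64 of the 99 probe sets (54 of 80 genes) stayed members in every such case. With the brightest probe set of each gene as the only feature, so with 14704 features, the calls were 4167 for the line difference at 0 h (9 member probe sets lower), 742 for 48 h against 0 h (0 members lower), 1220 for the doxycycline effect and 554 for the difference of effects. The corresponding counts over all probe sets were 6711, 1127, 1957 and 876. With undosed arrays at 24 to 48 h in place of 0 h, an alternative added after the data were seen, 11125 probe sets and 41 members lower were called. For 48 h against 0 h, members called higher numbered 2 after quantile normalization and 2 with a filter at the 75th percentile, which also gave 2 lower. Fitting only the comparison's groups gave 272 calls and 0 members higher. Leaving out single arrays gave 5504 to 6839 calls at 0 h (15 to 18 members higher, 16 to 20 lower) and 714 to 1264 for 48 h against 0 h (1 to 2 higher). For 48 h against 0 h it gave 714 without control 0 h replicate 2 and 741 without control 48 h replicate 3. Leaving out single arrays also gave 1732 to 2028 for the doxycycline effect and 777 to 942 for the difference. The causes were not tested.

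With the replicate number as a block, which pairs arrays by number only, the calls were 6786 at 0 h (18 members higher, 19 lower), 1130, 1964 and 864, all within 1.5 times those without it. The 10 member probe sets named at 0 h by size kept their call in each alternative that tested them (9 of 10 settings for FXR1 and for IL6ST 204863_s_at and 211000_s_at, 10 for the others), and no result reversed. IL6ST 212196_at was not among them and was not followed. Of the 37 list genes named for the doxycycline effect 25 kept their call throughout, and of the 19 for the difference 13 did.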
